A study of Caenorhabditis elegans with 21 samples.

Results

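Eri-6, eri-7 and sosi-1 are 3 neighbouring genes on chromosome I of Caenorhabditis elegans. They were picked by name in the WBcel235 annotation, and all 3 were present among the 75393 features (20134 of them gene identifiers) in which small RNA reads were counted. The 21 libraries came from L4 whole animals kept at 15 °C with NA22 bacteria as food. There were 3 libraries each of a dpf-3 null mutant, of DPF-3 S784A (1 changed residue in the DPF-3 protein), of mut-2(ne3370) and of mut-7(ne4255), and 9 libraries of wild type, lettered A to I. The labels do not name the dpf-3 null allele or say whether libraries of a genotype came from separate cultures, so the p-values cover the spread among these libraries alone, which may be technical. RNA had been treated with a 5′ polyphosphatase, which makes small RNAs with a 5′ triphosphate available for cloning.

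Nematode small interfering RNAs arise in steps. In the ERGO-1 pathway, the RNA-dependent RNA polymerase RRF-3 and Dicer make 26G RNAs that load the Argonaute ERGO-1, and a target found by ERGO-1 is then copied into secondary 22G RNAs by other RNA-dependent RNA polymerases with the help of the mutator proteins. MUT-2, also called RDE-3, is a nucleotidyltransferase and MUT-7 belongs to the exonuclease family, and both serve that amplification step. ERI-6/7 is a helicase needed for ERGO-1 26G RNAs. Its messenger RNA is assembled by trans-splicing from precursors that are transcribed separately from eri-6 and eri-7, which lie on opposite strands. The sosi-1 gene sits inside eri-6 on the opposite strand, and small RNAs of the mutator pathway are known to act on sosi-1 and on parts of eri-6, which makes the locus a feedback point of the pathway. DPF-3 belongs to the dipeptidyl peptidase family of proteases.

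The 3 genes were laid out side by side (WBcel235, the assembly that the submitters' notes call ce11). Eri-6 (WBGene00016561) ran from 4457375 to 4469460 on the plus strand, with 15 exon blocks and 5015 exonic bases. Eri-7 (WBGene00016566) lay just before it from 4451194 to 4456805 on the minus strand, with 10 exon blocks, 2189 exonic bases and no exonic base shared with another counted feature. Sosi-1 (WBGene00016565) was a single exon of 2559 bases from 4460146 to 4462704 on the minus strand, and 1131 of these bases were exonic in eri-6 too. On its own strand eri-6 shared 317 exonic bases with the gene T01A4.9 and 49 with an unnamed interval, so reads there could not be given to a single feature.

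**Figure D1:**
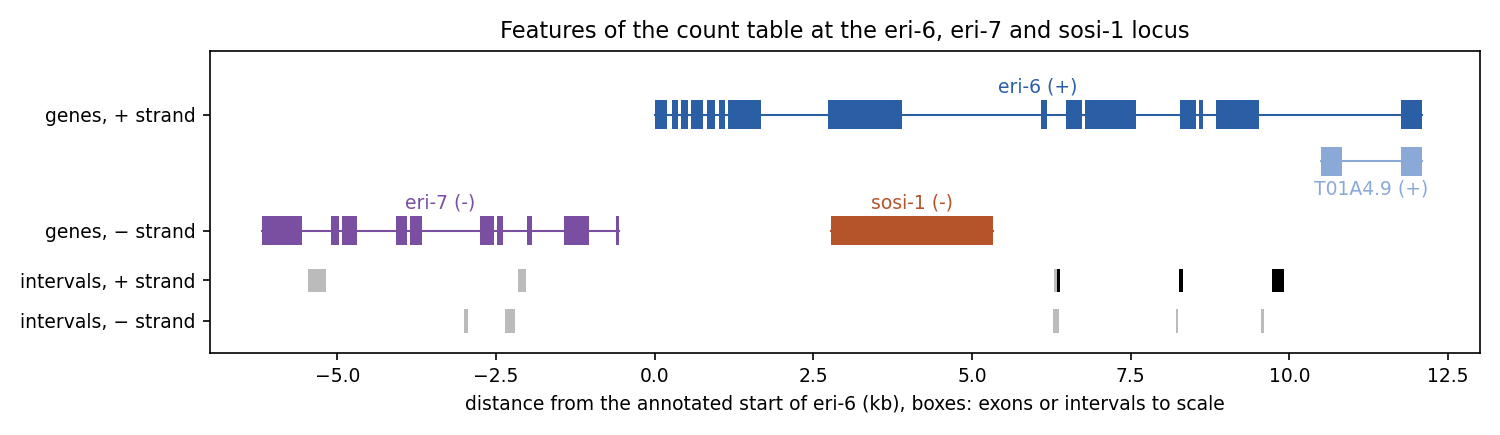
Features of the count table around the 3 genes, drawn to scale against the distance in kb from the annotated start of eri-6, with exons as boxes and the unnamed intervals on 2 rows below (black with at least 10 counts over all libraries, grey with fewer). Sosi-1 lies inside eri-6 on the other strand and T01A4.9 shares the end of eri-6, while eri-7 stands apart.

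No source used here gives the strand used in counting. Small RNAs made by RNA-dependent RNA polymerases are antisense to their target, so in the 1131 bases where eri-6 and sosi-1 overlap it is not known which gene received which reads. The table itself showed that strands were kept apart at least in places. Of 1219 intervals covered over their whole length by a feature of the other strand, 240 held counts (898 in all). Reads were not split by length or first base either, so 22G and 26G RNAs cannot be told apart here, and the counts describe small RNAs rather than messenger RNA.

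Depth was uneven. Feature counts ranged over 137185 to 224503 per library in the dpf-3 null, 62715 to 113444 in DPF-3 S784A, 40693 to 49934 in mut-2, 60226 to 100173 in mut-7 and 233040 to 583038 in wild type. In a single library 3 counts amounted to between 6.07 and 50.7 CPM. CPM are counts per 1e6 counts in the features that passed a filter on low counts, with library sizes scaled by TMM. Those features held 92.2% of all feature counts. Of all reads, 79.0% in the null, 82.2% in S784A, 90.3% in mut-2, 86.1% in mut-7 and 63.8% in wild type fell in no feature. The wild-type libraries formed a set of 6 (A to F) and a set of 3 (G to I) that the labels do not separate, so the main results are also given against each set. With the 2 sets as groups and TMM, 905 of 5038 features were called higher and 1693 lower in G to I than in A to F. Which set, if either, was prepared with the mutants is not stated. All 4 comparisons with wild type share the same 9 libraries.

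Small RNAs of eri-6 were lower in all 4 mutant genotypes, moderately in both dpf-3 genotypes and much more in both mut genotypes. The gene encodes the part of the helicase that is joined to the eri-7 part. It had 2117, 1939 and 2156 CPM in the dpf-3 null and 2336, 2651 and 2562 CPM in DPF-3 S784A. It had 270.3, 151 and 363 CPM in mut-2 and 126, 246 and 141 CPM in mut-7, which rest on 12 to 39 counts per library. Wild type ranged over 7008 to 12759 CPM with a median of 11482. The lowest wild-type library was above every mutant library, and the mut libraries all lay below the dpf-3 libraries, as they did for 18.3% of the features tested.

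By edgeR's quasi-likelihood test with Benjamini-Hochberg adjustment over 5038 features, eri-6 fell by 2.32 on the log2 scale in the null (SE 0.28, adjusted p = 6.46e-07). It averaged 2071 ± 115.6 CPM there (SD, n = 3), against 10329 ± 2241 CPM in wild type (SD, n = 9), which is 4.99-fold lower. In DPF-3 S784A it averaged 2516 ± 162 CPM and fell by 2.04 on the log2 scale (SE 0.28, edgeR adjusted p = 4.99e-06). In mut-2, at 261 ± 106 CPM, the log2 fold change was -5.32 (SE 0.36, edgeR adjusted p = 1.61e-10), and in mut-7, at 171 ± 65.4 CPM, it was -5.88 (SE 0.37, edgeR adjusted p = 2.07e-11). Many features fell in these comparisons, and the number called higher depended on the scaling. Of the features tested 23.0% were called lower in the null, 20.9% in S784A, 31.2% in mut-2 and 33.1% in the mut-7 mutant (higher were 13.3% in the null, 7.8% in S784A, 16.1% in mut-2 and 23.3% of features in the mut-7 mutant), and a log2 fold change below that of eri-6 was found in 16.8% of features in the null, 17.1% in S784A, 12.9% in mut-2 and 15.4% in the mut-7 mutant. Features called higher numbered 671 in the null with TMM, 59 with size factors, 77 with all reads and 2188 with library totals. In S784A they numbered 393, 70, 40 and 1551 with the same scalings, in mut-2 809, 367, 74 and 2533, and in mut-7 1173, 416, 404 and 2932. Features called lower ranged over 1024 to 1297 in the null, 898 to 1172 in S784A, 1288 to 1764 in mut-2 and 1341 to 1882 in the mut-7 mutant. Whole animals were sampled, so fewer cells with these RNAs and less RNA per cell cannot be told apart.

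The fall of eri-6 was seen against both wild-type sets and with all 4 scalings. Relative to the median log2 fold change of all features under the same scaling, it lay at -2.51 to -2.34 in the null, -2.08 to -1.93 in S784A, -5.32 to -5.15 in mut-2 and -6.02 to -5.81 in the mut-7 mutant. Subtracting that median takes out most of the scaling by construction. The log2 fold change itself ranged more widely over the alternative runs that left out no single library. It was -2.71 to -1.62 in the null, -2.40 to -1.38 in S784A, -5.90 to -4.03 in mut-2 and -6.33 to -4.52 in the mut-7 mutant. Against A to F the log2 fold changes were -2.64 in the null, -2.36 in S784A, -5.60 in mut-2 and -6.13 in the mut-7 mutant, and against G to I they were -2.02, -1.64, -5.05 and -5.67 in the same genotypes. Between the sets themselves eri-6 averaged 7403 ± 343 CPM in G to I (n = 3) and 11792 ± 533 CPM in A to F (n = 6). That order depended on the scaling. Eri-6 held 0.625% of feature counts in G to I and 0.639% in A to F, and scaled to all reads it had 2900 CPM in G to I and 1975 CPM in A to F. Among all 75393 features eri-6 had rank 41 by mean CPM in the null, 37 in S784A, 465 in mut-2, 893 in mut-7 and 12 in wild type.

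**Figure D2:**
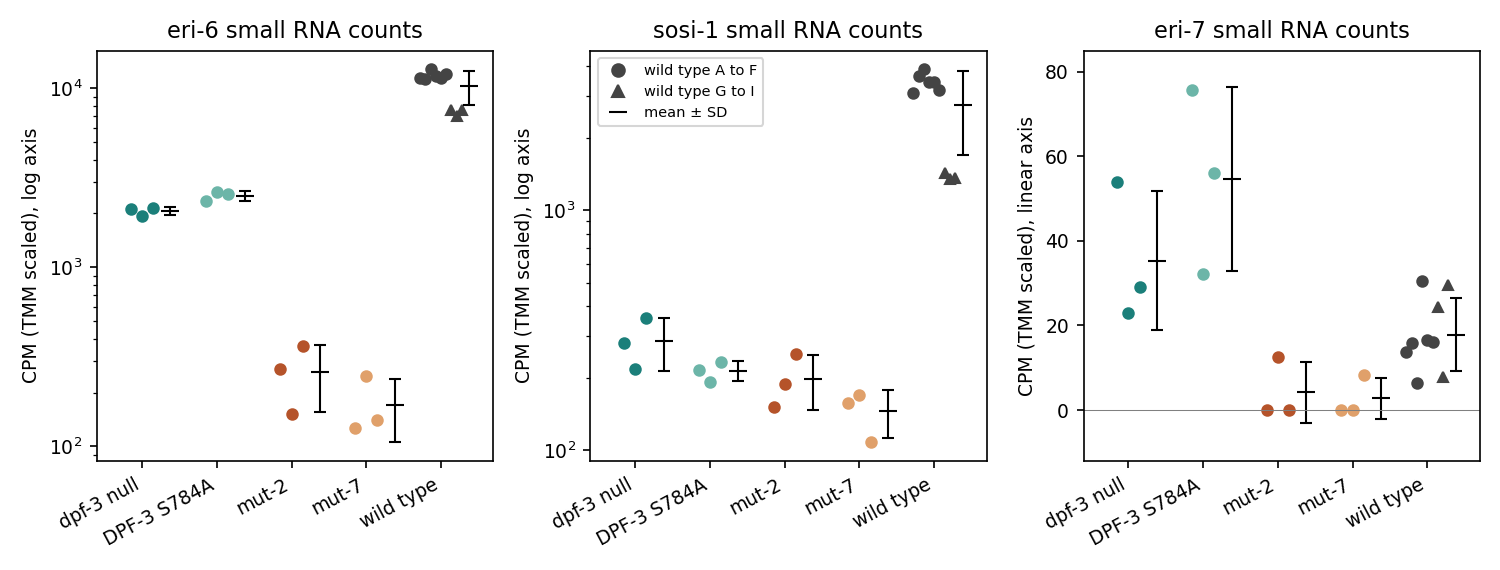
CPM (TMM scaled) of eri-6, sosi-1 and eri-7 in each library, with log axes for eri-6 and sosi-1 and a linear axis for eri-7, and a bar for the mean ± SD of each genotype (n = 3, wild type n = 9; wild-type triangles are libraries G to I). Every mutant library of eri-6 and sosi-1 lies below every wild-type library, whereas eri-7 is at 22.9 to 75.7 CPM in the dpf-3 genotypes, at 0 to 12.6 CPM in the mut genotypes and at 6.43 to 30.5 CPM in wild type.

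Small RNAs of sosi-1, the gene inside eri-6, fell in all 4 mutant genotypes, with log2 fold changes of -4.23 to -3.28. It had 279, 217 and 357 CPM in the dpf-3 null and 216, 193 and 234 CPM in DPF-3 S784A. It had 152, 189 and 252 CPM in mut-2 and 157, 170.4 and 108 CPM in mut-7. Wild type ranged over 1351 to 3878 CPM with a median of 3183. No mutant library reached the lowest wild-type library. Among the mutants the range of mut-2 overlapped that of each of the others, while mut-7 lay below both dpf-3 genotypes. Every mutant library lay below every wild-type library in 21% of features tested in the null, 19.3% in S784A, 29.2% in mut-2 and 30.0% in the mut-7 mutant, a state that eri-6 and sosi-1 shared.

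Sosi-1 averaged 285 ± 69.9 CPM in the null, against 2756 ± 1055 CPM in wild type, and fell by 3.28 on the log2 scale (SE 0.38, edgeR adjusted p = 3.19e-07). In DPF-3 S784A it averaged 214 ± 20.6 CPM and fell by 3.67 (SE 0.41, edgeR adjusted p = 3.52e-07). Its log2 fold change was -3.79 in mut-2, at 198 ± 50.8 CPM (SE 0.42, edgeR adjusted p = 9.80e-08), and -4.23 in mut-7, at 145 ± 32.9 CPM (SE 0.42, edgeR adjusted p = 1.01e-08). As fold changes these are 9.69-fold, 12.7-fold, 13.8-fold and 18.8-fold lower. In the dpf-3 genotypes few features fell further than sosi-1 (9.31% in the null and 6.17% in S784A), and more did so in mut-2 (22.4%) and mut-7 (22.5%).

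The size of the sosi-1 change depended on the wild-type set. Against A to F the log2 fold changes were -3.75 in the null, -4.11 in S784A, -4.18 in mut-2 and -4.65 in the mut-7 mutant. Against G to I they were -2.48, -2.75, -2.99 and -3.54 in the same genotypes. Relative to the median of all features under each of the 4 scalings, which takes out most of the scaling by construction, it lay at -3.48 to -3.20 in the null, -3.73 to -3.45 in S784A, -3.80 to -3.51 in mut-2 and -4.37 to -4.06 in the mut-7 mutant. Over the alternative runs that left out no single library, the log2 fold change itself was -3.75 to -2.48 in the null and -4.11 to -2.75 in S784A. It was -4.27 to -2.44 in mut-2 and -4.70 to -2.83 in the mut-7 mutant. Sosi-1 itself averaged 1383 ± 46.9 CPM in G to I and 3443 ± 289 CPM in A to F, and held 0.117% of feature counts in G to I and 0.186% in A to F, while scaled to all reads it had 542 CPM in G to I and 577 CPM in A to F.

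**Figure D3:**
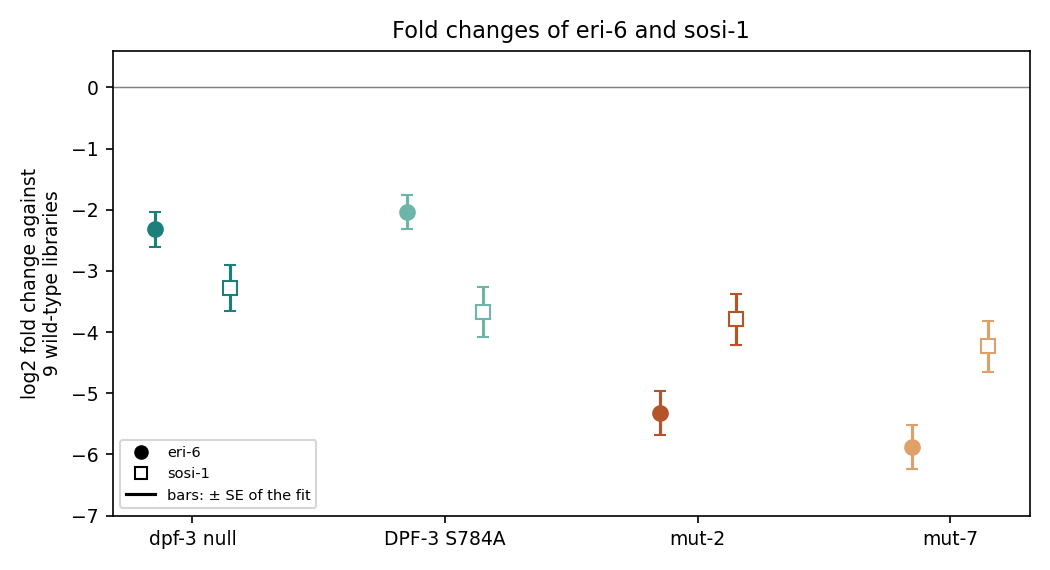
Log2 fold changes of eri-6 (filled circles) and sosi-1 (open squares) in each mutant genotype against the 9 wild-type libraries, with bars for ± 1 SE of the edgeR fit. Eri-6 lies at -2.32 and -2.04 in the dpf-3 genotypes and at -5.32 and -5.88 in the mut genotypes, while sosi-1 lies between -3.28 and -4.23 in all 4.

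Eri-7, which encodes the other part of the helicase, drew few small RNAs in any genotype, 84 counts over the 21 libraries, and did not pass the filter on low counts. It had 54.1, 22.9 and 29.1 CPM in the dpf-3 null (12, 4 and 4 counts) and 75.7, 32.1 and 56.1 CPM in DPF-3 S784A (7, 2 and 6 counts). A single count was seen over the 3 mut-2 libraries and a single count over the 3 mut-7 libraries. Wild type ranged over 6.43 to 30.5 CPM with a median of 16.0, from 47 counts in all. The S784A libraries all lay above wild type, as 7.23% of the features tested did, while the null overlapped it and the mut genotypes lay at its low end.

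For eri-7 the mean CPM was therefore put to an exact permutation test (2-sided), with p adjusted over 7 comparisons. It averaged 54.6 ± 21.8 CPM in S784A, against 17.9 ± 8.62 CPM in wild type (exact p = 0.00909 and adjusted p = 0.0318). It averaged 35.4 ± 16.5 CPM in the null, a difference from wild type that did not pass (exact p = 0.0818, adjusted p = 0.115). It was lower in both mut genotypes, at 4.19 CPM in mut-2 and 2.77 CPM in the mut-7 mutant (exact permutation p = 0.0273 and adjusted p = 0.0477 for each). The mut-2 and mut-7 values rest on 1 count each. From counting error alone the ratio to wild type was 1.82 (exact 95% interval 1.02 to 3.12) in the null, 2.78 (1.44 to 5.06) in S784A, 0.240 (0.00595 to 1.40) in mut-2 and 0.130 (0.00321 to 0.758) in the mut-7 mutant.

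The S784A difference of 36.8 CPM was 26.3 to 48.0 CPM when 1 of its own libraries was left out, where 2 libraries against 9 cannot give an exact p below 0.0364 (adjusted p = 0.0636). Its call was lost with all reads as library size (adjusted p = 0.143). The mut-2 and mut-7 calls were lost without any 1 of 7 wild-type libraries (all but C and H; adjusted p = 0.0636) and with library totals (adjusted p = 0.477 and 0.27). Without 1 of their own libraries, with the same lower bound on p, the adjusted p was 0.0636 to 0.153. Against A to F the differences were 38.1 CPM in S784A, -12.3 CPM in mut-2 and -13.7 CPM in the mut-7 mutant, and against G to I they were 34.1, -16.4 and -17.8 CPM. None of these passed, and with 3 libraries against 3 none against G to I could.

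Per kb of exon in wild type, eri-6 had 2060 ± 447 CPM per kb, sosi-1 1077 ± 412 and eri-7 8.16 ± 3.94 (SD, n = 9). The order was the same in the dpf-3 genotypes. In the null eri-6 had 413 ± 23.0 CPM per kb, sosi-1 111 ± 27.3 and eri-7 16.2 ± 7.53, and in S784A they had 502 ± 32.3, 83.7 ± 8.03 and 24.96 ± 9.97. In the mut genotypes sosi-1 came first, at 77.3 ± 19.9 CPM per kb in mut-2 and 56.8 ± 12.9 in the mut-7 mutant. Eri-6 had 52.1 ± 21.2 CPM per kb in mut-2 and 34.1 ± 13.04 in the mut-7 mutant. Sosi-1 was above eri-6 per kb in every mut library, a difference that rests on few counts and was not tested.

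The summed counts of the 3 genes were lower in every mutant genotype, which follows from the falls of eri-6 and sosi-1 and is no separate result. Eri-6 held 79.6% and sosi-1 20.3% of the sum in wild type. Eri-7 was not lower in the dpf-3 genotypes (35.4 CPM in the null and 54.6 in S784A, against 17.9 in wild type). The sum was 2391 ± 189 CPM in the null, 2785 ± 137 in S784A, 463 ± 136 in mut-2 and 319 ± 85.3 in the mut-7 mutant, against 13103 ± 3278 in wild type. Every mutant library was under the lowest of the 9 wild-type libraries, with p = 0.00909 in each exact permutation test, the smallest possible (adjusted p = 0.00909). The sum made up 0.238% of feature counts in the null, 0.269% in S784A, 0.0698% in mut-2, 0.0501% in mut-7 and 0.799% in wild type.

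The makeup of that sum moved in opposite directions in the dpf-3 and mut genotypes, a measure that does not depend on how libraries are scaled. Sosi-1 held 11.4%, 9.97% and 14.04% of the counts of the 3 genes in the null and 8.23%, 6.70% and 8.20% in S784A. It held 36%, 53.6% and 41.0% in mut-2 and 55.6%, 40.9% and 41.9% in mut-7. In wild type the share ranged over 15.1 to 24.3% with a median of 21.2%. The dpf-3 libraries were all below wild type and the mut libraries all above it.

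On average the sosi-1 share was 11.8% ± 2.06 in the null and 7.71% ± 0.872 in S784A, and 43.5% ± 9.05 in mut-2 and 46.1% ± 8.18 in the mut-7 mutant, against 20.3% ± 3.58 in wild type. Each genotype differed from wild type with p = 0.00909 in the exact permutation test, the lowest value 220 splits can give (adjusted p = 0.0109 over 12 tests). Wild type A to F had 22.6% ± 1.30 and G to I 15.7% ± 0.519. The means of the dpf-3 genotypes lay below those of both sets and the means of the mut genotypes above both. Against G to I alone 3 libraries against 3 cannot give an exact p below 0.1. Depth limits single mut libraries, since they held 25 to 66 counts of the 3 genes, and the exact 95% interval in mut-2 A, for example, ran from 18 to 57.5%. As a ratio, eri-6 had 7.51 counts per sosi-1 count in the null, 11.8 in S784A, 1.34 in mut-2 and 1.18 in the mut-7 mutant, against 4.08 in wild type.

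**Figure D4:**
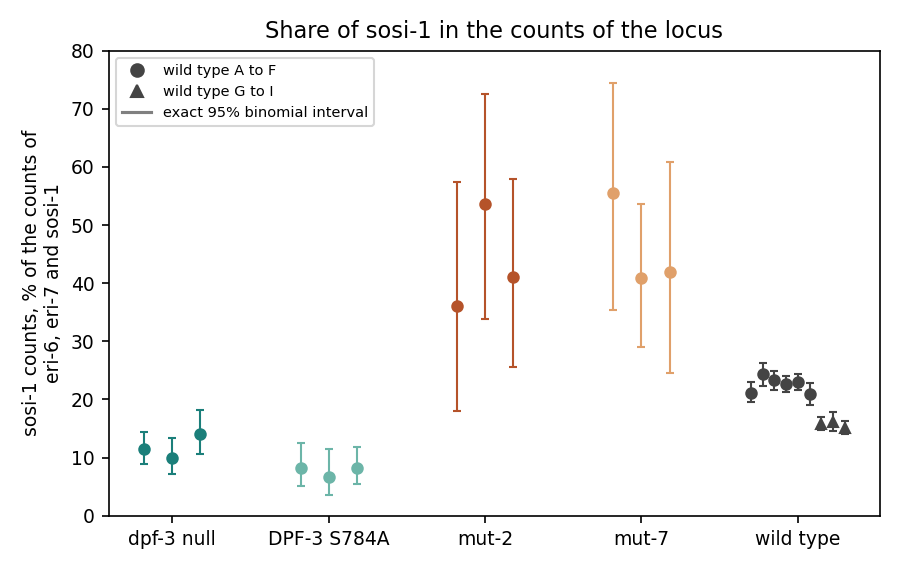
Share of sosi-1 in the counts of eri-6, eri-7 and sosi-1, in percent, for each library with its exact 95% binomial interval, which covers counting error only. The 6 dpf-3 libraries lie at 6.70 to 14.04%, the 6 mut libraries at 36 to 55.6% and the 9 wild-type libraries at 15.1 to 24.3%.

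The shares of the other genes completed this. Eri-6 held 86.7% ± 2.10 in the null and 90.3% ± 1.69 in S784A, and 55.3% ± 11.05 in mut-2 and 52.8% ± 7.53 in the mut-7 mutant, against 79.6% ± 3.52 in wild type (exact permutation p = 0.00909, adjusted p = 0.0109 in each comparison). The eri-6 share is nearly what sosi-1 leaves of the sum, so these tests repeat those of the sosi-1 share. Eri-7 held 1.47% ± 0.641 in the null and 1.99% ± 0.882 in S784A, against 0.150% ± 0.0953 in wild type. This share moves with the fall of eri-6 and sosi-1, which make up nearly all of the sum, and is no separate result on eri-7, whose own CPM in the null did not pass. In mut-2 and mut-7 a single count set its share.

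Set directly against each other, both mut genotypes had less eri-6 than both dpf-3 genotypes, with a log2 fold change of -3.42 (SE 0.25, 95% interval -3.94 to -2.90, edgeR adjusted p = 5.57e-10). For sosi-1 the same comparison gave -0.54 (SE 0.33, 95% interval -1.21 to 0.13, edgeR adjusted p = 0.217). That difference did not pass, yet it did pass under 5 alternatives and its sign turned when library totals were used. In this comparison 27.8% of features were called lower and 7.54% higher. Whether the dpf-3 and mut libraries were prepared together is not stated, so library set and genotype cannot be told apart in it. The sosi-1 share was 44.8% ± 7.84 in the 6 mut libraries and 9.76% ± 2.65 in the 6 dpf-3 libraries, a difference of 35.1 percentage points (p = 0.00216 in the exact permutation test, the lowest value 924 splits can give). That test pools the libraries of both genotypes on each side. Eri-7 had 3.48 CPM in the mut genotypes and 45.0 CPM in the dpf-3 genotypes (exact permutation p = 0.00216, adjusted p = 0.0152).

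Within each pair of genotypes no member was called. Between the dpf-3 null and DPF-3 S784A the log2 difference was -0.28 for eri-6 (95% interval -0.91 to 0.35) and 0.39 for sosi-1 (-0.51 to 1.29), with an edgeR adjusted p of 0.987 for each. Between mut-2 and mut-7 it was 0.56 for eri-6 (95% interval -0.22 to 1.34, edgeR adjusted p = 0.652) and 0.44 for sosi-1 (-0.57 to 1.44, edgeR adjusted p = 0.806). All of these intervals but that of eri-6 between the dpf-3 genotypes reach beyond a 2-fold difference. Few features were called in either comparison, 0.0397% lower and 0% higher between the dpf-3 genotypes and 0.457% lower and 0.397% higher between mut-2 and mut-7. These numbers depend on pooling wild type: with its 2 sets as groups the 0 higher and 2 lower features between the dpf-3 genotypes became 30 and 104, and the 20 and 23 between mut-2 and mut-7 became 142 and 100. Eri-7 had an exact permutation p of 0.2 between the dpf-3 genotypes and of 1.0 between the mut genotypes, where 0.1 is the smallest that 3 against 3 allows.

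Features on the eri-6 strand inside the gene were lower in the mutants too. T01A4.9, whose exons overlap the end of eri-6, had 6.82 ± 6.03 CPM in the null and 15.7 ± 6.15 CPM in S784A, no count in mut-2 or mut-7, and 88.2 ± 25.6 CPM in wild type. It fell by 3.41 on the log2 scale in the null (SE 0.52, edgeR adjusted p = 2.61e-05) and by 2.43 in S784A (SE 0.55, edgeR adjusted p = 0.002). Against a limit of 3 counts over a genotype's libraries it was at least 5.38-fold lower in mut-2 and at least 9.96-fold lower in the mut-7 mutant. The interval from 4467100 to 4467296 (plus strand, in an eri-6 intron) had 7 counts in the null, 1 in S784A, 0 in mut-2 and 0 in the mut-7 mutant, against 277 in wild type. It was called lower in all 4 by edgeR (adjusted p between 7.88e-07 and 3.27e-05). Against the same limit of 3 counts it was at least 8.19-fold lower in mut-2 and at least 15.2-fold lower in the mut-7 mutant.

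A pair of shorter plus-strand intervals within eri-6 did not pass the filter. The interval from 4463719 to 4463753 had 1 count in the null and none in S784A, mut-2 or mut-7, against 109 in wild type. By exact 95% limits for counting error it was at least 3.34-fold lower in S784A, 2.58-fold in mut-2 and 4.77-fold in the mut-7 mutant. The minus-strand interval that covers nearly all of it, from 4463649 to 4463752, had no count in any library. The interval from 4465643 to 4465706, which shares 49 bases with an eri-6 exon, had 10.3 ± 6.69 CPM in the null (6 counts), 14.4 ± 24.97 CPM in S784A (4 counts) and no count in the mut genotypes, against 41.9 ± 19.3 CPM in wild type (94 counts). All 4 S784A counts were in library A, at 43.3 CPM inside the wild-type range of 22.3 to 72.0 CPM. Its ratio to wild type, with counting error only, was 0.272 (exact 95% interval 0.0975 to 0.615) in the null and 0.371 (0.0989 to 0.981) in S784A, and it was at least 2.78-fold lower in mut-2 and at least 5.14-fold lower in the mut-7 mutant.

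Genes outside the locus but within 10 kb gave other values. Cps-6, a mitochondrial endonuclease gene, had 301 ± 46.3 CPM in the null and 154 ± 37.4 CPM in S784A, against 211 ± 83.7 CPM in wild type, and neither difference passed (edgeR adjusted p = 0.211 and 0.318). It fell by 2.44 on the log2 scale in mut-2 (38.5 ± 10.2 CPM, edgeR adjusted p = 0.000212) and by 2.89 in mut-7 (26.6 ± 21.6 CPM, edgeR adjusted p = 7.50e-06). The mut-2 call of cps-6 was lost with library totals. Cps-6 also differed between the wild-type sets, with 313 ± 45.4 CPM in G to I and 159 ± 30.04 CPM in A to F. Against A to F it was called higher in the null (log2 0.76) and against G to I lower in S784A (log2 -1.14).

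Eif-3.H, a translation initiation factor gene, and C41D11.3 were called higher in mut-7 (log2 0.93 and 0.96, edgeR adjusted p = 0.0301 and 0.00262). Both calls were lost with DESeq2 size factors and with all reads as library size. In the other 3 genotypes neither was called with TMM, while with library totals C41D11.3 was higher in all 3 and eif-3.H in the null and mut-2. Cmt-1, which had 60 counts over all libraries, and C41D11.9, which had 22, were too low to be tested.

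In the dpf-3 genotypes no gene of 3 lists of small RNA pathway genes was called lower against the 9 wild-type libraries with TMM. Other settings did call some. Rde-11 was lower in both dpf-3 genotypes against A to F, against G to I and with DESeq2 size factors. Rde-12 was lower in S784A against A to F, with size factors and with all reads, while against G to I rrf-3 was lower in the null (log2 -0.49) and sid-1 in S784A (log2 -0.58). These 4 genes are named for that after their values were seen. The lists were written from general knowledge and were not checked against a source. Of 12 other genes of the ERGO-1 26G pathway, 11 were tested. In the null 3 were higher and 0 lower (median log2 fold change 0.51, all features 0.18), in S784A 1 and 0 (0.24, all features 0.04), in mut-2 3 and 2 (0.23, all features -0.02) and in mut-7 4 and 2 (0.44, all features 0.11). The shares of all features called higher were 13.3% in the null, 7.8% in S784A, 16.1% in mut-2 and 23.3% in the mut-7 mutant, and those called lower were 23.0%, 20.9%, 31.2% and 33.1% in the same genotypes. Eri-3, a Dicer complex component, was higher in the null at 343 ± 22.9 CPM and in S784A at 322 ± 42.1 CPM, and lower in mut-2 at 58.2 ± 23.4 CPM and in mut-7 at 39.1 ± 6.70 CPM, against 140 ± 36.4 CPM in wild type (log2 1.27, 1.18, -1.26 and -1.82). Its S784A call was lost with all reads as library size and its mut calls with library totals. Rde-4, a double-stranded RNA binding protein gene, was lower in mut-2 and mut-7 (log2 -0.82 and -0.84), and both calls were lost with library totals. In the null it was higher (log2 0.58), a call lost with size factors and with all reads. Eri-1, an exonuclease gene, was higher in mut-2 at 280 ± 52.3 CPM and in mut-7 at 244 ± 13.3 CPM, against 76.9 ± 20.0 CPM in wild type. It was also higher in the null (log2 0.83), a call lost with size factors, with all reads and against G to I. In mut-2 henn-1, a small RNA methyltransferase gene (log2 1.97), and dcr-1, the Dicer gene (log2 1.17), were higher, the call of dcr-1 not with all reads.

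Of 16 genes of the mutator complex and of amplification, 13 were tested. Higher and lower were 5 and 0 in the null (median 0.51), 0 and 0 in S784A (0.16), 3 and 2 in mut-2 (0.34) and 2 and 2 in mut-7 (0.21). All features had 13.3% higher and 23.0% lower in the null, 7.8% and 20.9% in S784A, 16.1% and 31.2% in mut-2 and 23.3% and 33.1% in the mut-7 mutant. Rde-11, a factor of small RNA amplification, had 75.4 ± 58.3 CPM in mut-2 and 49.7 ± 40.2 CPM in the mut-7 mutant, against 558 ± 120 CPM in wild type (log2 -2.90 and -3.57). Sid-1, the double-stranded RNA transporter gene, had 63.6 ± 48.6 CPM in mut-2 and 52.3 ± 9.64 CPM in the mut-7 mutant, against 547 ± 205 CPM in wild type (log2 -3.18 and -3.41). Counts of mut-7 itself were higher in mut-2 and mut-7 (log2 1.40 and 1.39), the call in mut-2 not with all reads. In the null mut-7, mut-15 and the polymerase gene ego-1 were higher (log2 0.64, 0.75 and 0.51), and all 3 calls were lost with size factors and with all reads.

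Of 13 Argonaute genes of the 22G pathway, 12 were in the table and 8 were tested. Higher and lower were 3 and 0 in the null (median 0.40), 4 and 0 in S784A (0.45), 1 and 1 in mut-2 (-0.15) and 3 and 3 in mut-7 (-0.12). For all features the medians were 0.18, 0.04, -0.02 and 0.11 in the same genotypes, with 13.3%, 7.8%, 16.1% and 23.3% called higher and 23.0%, 20.9%, 31.2% and 33.1% called lower. Sago-1 had no count in mut-2, where 3 counts over its libraries would be 14.8 CPM, and 6.31 ± 10.9 CPM in mut-7, against 86.8 ± 32.6 CPM in wild type. Wago-1 was higher in all 4 (log2 0.68, 0.68, 0.72 and 0.97). All 4 calls were lost with all reads as library size, and those in the null, S784A and mut-2 with size factors too. Ppw-2 was higher in the null and S784A (log2 0.79 and 0.66), both lost with size factors and the S784A call with all reads too. Sago-2 in the null (0.63) and hrde-1 in S784A (0.56) were higher, both lost with size factors and with all reads. Csr-1 was lower in mut-7 (log2 -0.70) and higher there with library totals.

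Of 34 ERGO-1 target genes written down, 27 were in the table and 24 were tested. In the mut genotypes most fell, 18 lower and 0 higher in mut-2 (median log2 fold change -2.80) and 16 lower and 1 higher in mut-7 (median -1.84). The number lower ranged over 14 to 20 in mut-2 and over 8 to 18 in mut-7 across the 4 scalings, and 9 were higher in mut-7 under library totals. In the dpf-3 genotypes few were called with all 9 wild-type libraries, 2 higher and 2 lower in the null (median 0.37) and 5 higher and 2 lower in S784A (median 0.42). Against G to I 18 of 23 were higher in each dpf-3 genotype, with 2 lower in the null and 3 in S784A. Against A to F 1 was higher and 4 lower in the null and 6 were higher and 6 lower in S784A, with a median of -0.08 in both. Among all features 13.3% were called higher and 23.0% lower in the null, 7.8% and 20.9% in S784A, 16.1% and 31.2% in mut-2 and 23.3% and 33.1% in the mut-7 mutant.

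With the 9 wild-type libraries pooled, C18D4.6 and C08F11.7 were the targets called lower in both dpf-3 genotypes. F39F10.4, named after its values were seen, was also lower in both against A to F (log2 -0.53 in the null and -1.1 in S784A) and higher in both against G to I. C18D4.6 had 62.2 ± 21.4 CPM in the null, 68.4 ± 26.7 in S784A, 5.63 ± 9.75 in mut-2 and 2.10 ± 3.64 in the mut-7 mutant, against 1745 ± 547 CPM in wild type. C08F11.7 had 76.2 ± 28.9 CPM in the null, 95.5 ± 60.0 in S784A, 22.2 ± 25.9 in mut-2 and 28.7 ± 10.9 in the mut-7 mutant, against 1452 ± 391 CPM in wild type. C44B11.6 was lower in mut-2 (282 ± 31.4 CPM) and mut-7 (955 ± 36.6 CPM), against 5579 ± 1727 CPM in wild type, and so was F55C9.3 in mut-2 (189 ± 77.6 CPM, against 1468 ± 265 CPM). F14F7.5 in the null (log2 1.37) and Y116F11A.1 in S784A (log2 2.13) had the largest rises called in these genotypes, the first lost with size factors, with all reads and against G to I.

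**Figure D5:**
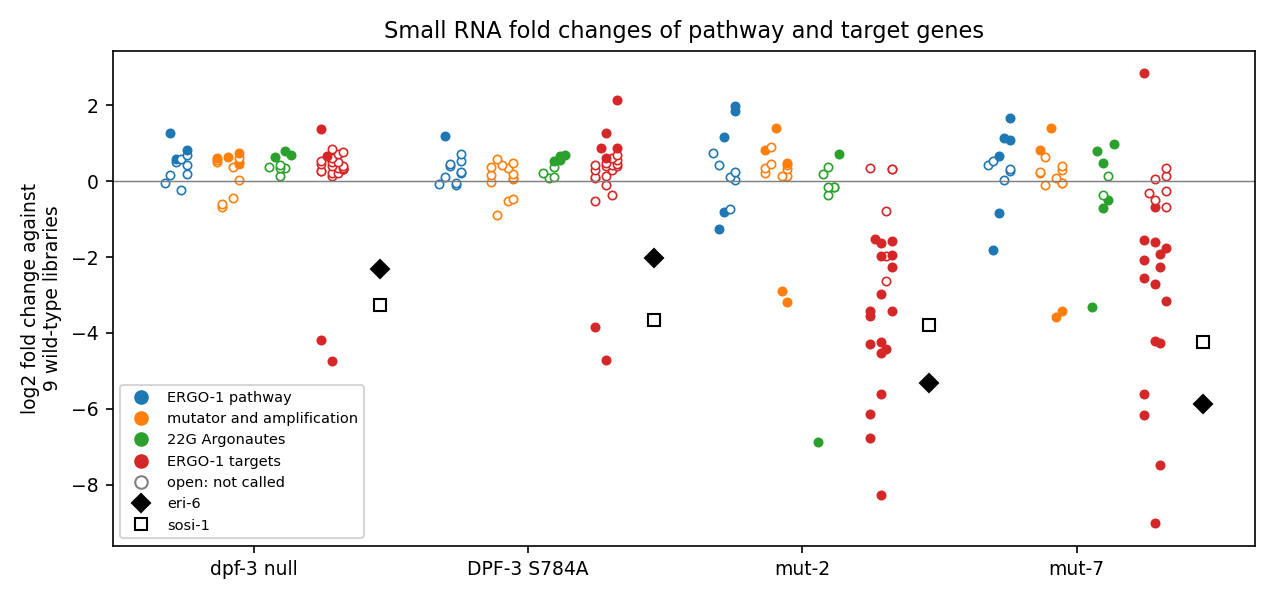
Log2 fold changes against the 9 wild-type libraries of every tested gene of the 4 lists in each mutant genotype, filled where called at an adjusted p under 0.05 and open where not, with eri-6 (black diamond) and sosi-1 (open square) beside them. In the dpf-3 genotypes 2 ERGO-1 targets lie below eri-6 and sosi-1 and every other called list gene lies above 0, while in mut-2 and mut-7 most ERGO-1 targets lie below 0.

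Over the 21 libraries the features most like eri-6 by Pearson's r of log2 CPM were T27F6.8, Y71A12B.10, K08F11.1, F37D6.3 and saeg-1, with r = 0.99 for each. As a description, their log2 fold changes ranged over -3.25 to -1.35 in the null and -3.05 to -1.22 in S784A, and over -6.43 to -3.41 in mut-2 and -8.09 to -3.88 in the mut-7 mutant. The features most like sosi-1 were others, with r of 0.98 each. They were idpp-2, F31C3.6, an interval on chromosome II (10933243 to 10941800, minus strand) and intervals on X (17697094 to 17697655, minus strand, and 16234996 to 16236011, plus strand). Eri-6 and sosi-1 themselves had r = 0.87, with sosi-1 at rank 968 among features by likeness to eri-6 and eri-6 at rank 740 by likeness to sosi-1. The points share libraries, scaling and genotype groups, and the values carry no test.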

How the data were processed

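Small RNA libraries had been prepared from 5′ polyphosphatase-treated RNA with the QIAseq miRNA kit, per the labels' protocols. The authors deposited raw counts of reads per feature for all 21 libraries. The submitters' processing notes name cutadapt 2.3, Bowtie 1.2.3, SAMtools 1.9, HTSeq 0.11.2 and the ce11 assembly. No source used here gives the strand setting, the length filter or how multi-mapping and duplicate reads were treated. Rows that name no feature were left out of library sizes and tests, and their share is in the report.

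Features passing edgeR's filterByExpr (5038 of 75393) were fitted over all 5 genotypes with edgeR 4.0.16 (TMM, glmQLFit, glmQLFTest) in R 4.3.3 with limma 3.58.1, with Benjamini-Hochberg adjustment over all of them and a threshold of 0.05. Eri-7, the summed CPM and the shares were compared by 2-sided exact permutation tests over libraries (Python 3.11.15, pandas 2.3.3, scipy 1.17.1). DESeq2 1.42.0 gave the alternative size factors, and figures were drawn with matplotlib 3.10.9. The edgeR fit was tested on simulated data, in which wild type had no separate sets. Intervals for shares and count ratios are exact, at 95%, and cover counting error only, as does the floor of 3 counts.

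The genes and lists were chosen with earlier results of these data known. Genes of a list were named where called, at most 3 per list and comparison in order of adjusted p, and the neighbours named are all features with at least 10 counts within 10 kb. No sign was seen that letters shared between genotypes pair libraries: in 0 of 10 pairs of genotypes did every letter correlate over 0.1. With so few counts per feature this check can miss a pairing, and the main fit used none.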

Additional observations from a re-analysis of the deposited data

Results flagged for a closer look

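Eri-6 and sosi-1 differed in how the mut and dpf-3 genotypes compared. The log2 fold change of eri-6 in both mut genotypes against both dpf-3 genotypes was -3.42 (SE 0.25, edgeR adjusted p = 5.57e-10), so its fall relative to wild type was larger in the mut genotypes by a test of the difference itself.

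The share of sosi-1 in the counts of the 3 genes was higher in the 6 mut libraries than in the 6 dpf-3 libraries by 35.1 percentage points (exact permutation p = 0.00216). It lay above the wild-type range in 6 of 6 mut libraries and below it in 6 of 6 dpf-3 libraries. Feature counts were lowest in mut-2, at 40693 to 49934 per library, and the part of depth in the share was not tested. Since it is not stated whether dpf-3 and mut libraries were prepared together, library set and genotype cannot be told apart in either difference.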

How the results depend on the processing

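The falls of eri-6 and sosi-1 against wild type were called in every alternative run. Of 638 alternatives over 37 results, 578 kept direction and side of the threshold, 48 lost a call, 6 gained one and 6 turned sign. The 37 results are not independent, since the sum and the shares are made from the same counts. With all reads as library size the mut-2 against mut-7 difference, not called either way, became -0.026 for eri-6 and -0.14 for sosi-1. For sosi-1 in the mut against the dpf-3 genotypes, library totals gave 0.12 (edgeR adjusted p = 0.663), whereas the call was gained with all reads (-0.60), no filter (-0.76), the replicate block (-0.54, edgeR adjusted p = 0.0357), the 2 wild-type sets as groups (-0.53) and only the groups compared (-0.60). Among the edgeR results on eri-6 and sosi-1, for which alone it was run member by member, the replicate block changed no other call. Letters D to I occur in wild type only, so the block fits each of those libraries by a term of its own. Comparisons with wild type in that run therefore rest on libraries A to C. Over all features the block gave 26 higher and 81 lower between the dpf-3 genotypes (0 and 2 without it) and 123 and 90 between mut-2 and mut-7 (20 and 23 without it). The common dispersion was 0.00466 with the 2 wild-type sets as groups and 0.0947 with wild type as 1 group.

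For eri-7 the difference in mean CPM from wild type gained a call in the null with library totals (23.3). In S784A the call was lost with all reads (4.82), against A to F (38.1) or G to I (34.1), and without a filter (log2 1.2), and leaving out 1 library gave 26.3 to 48.0. In mut-2 it was lost with totals (-5.11), against A to F (-12.3) or G to I (-16.4) and without a filter (log2 -2.29), and leaving out 1 library gave -17.9 to -11.6. In mut-7 it was lost with totals (-7.53) and against A to F (-13.7) or G to I (-17.8), and leaving out 1 library gave -17.9 to -13.5. Between mut-2 and mut-7 that range was -2.77 to 4.19, the lowest without mut-2 B.

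Against G to I alone no exact permutation p can be below 0.1. The summed CPM then differed by -6416 (null), -6021 (S784A), -8343 (mut-2) and -8487 (mut-7). The sosi-1 share differed by -3.91, -8.0, 27.8 and 30.4 percentage points in the same genotypes and the eri-6 share by 2.67, 6.24, -28.8 and -31.3, while the eri-7 share differed by 1.24 in the null and 1.76 in S784A. Without mut-2 B or mut-7 C the eri-7 share difference was -0.150, and ranges were -0.150 to 1.64 in mut-2 and -0.150 to 1.46 in mut-7. Scaling moved the median log2 fold change of all features, which with TMM was 0.18 (null), 0.04 (S784A), -0.02 (mut-2) and 0.11 (mut-7) and 0.76, 0.59, 1.18 and 1.35 with library totals. Counts of genes called higher moved with it. For the null, S784A, mut-2 and mut-7 they were 7, 6, 6 and 9 of the ERGO-1 pathway with totals (3, 1, 3 and 4 with TMM), 10, 6, 11 and 10 of the mutator list (5, 0, 3 and 2), 8, 7, 7 and 7 of the Argonautes (3, 4, 1 and 3) and 20, 17, 2 and 9 of the targets (2, 5, 0 and 1). With size factors they were 1, 1, 3 and 1, then 0, 0, 1 and 1, then 0, 0, 0 and 1, then 0, 1, 0 and 1 of the same lists. Apart from the bound on p with fewer samples, the cause of these changes was not tested. Depth limits eri-7, with 84 counts in all.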
